A study of Mus musculus with 2 samples.

Results

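The activin and TGF-β genes described here are 10 genes in 4 roles: the ligand genes Inhba, Inhbb and Tgfb1, the antagonist gene Fst, the receptor genes Tgfbr1, Acvr1b, Tgfbr2 and Acvr2a, and the SMAD genes Smad3 and Smad7. They were taken by symbol, and all 10 were among the 24346 symbols of both tables. The set was chosen by a pathway's gene names with the FPKM values of these same libraries known, so every difference below is a description and carries no test. RNA was sequenced from myeloid cells isolated as Gr-1+ CD11b+, surface markers that neutrophils and monocytes share, from BALB/c mice given 3% dextran sulfate sodium (DSS), a polymer that causes colitis, for 6 days. The control library came from cells stimulated without ATPγS (n = 1), and the other from cells given 100 µM ATPγS, a slowly hydrolysed ATP analogue that acts on nucleotide receptors (n = 1). The treatment protocol, which the labels give for both libraries in the same words, lasted 2.5 hours. The prefix of that unit is a symbol-font character in the label, read here as micro, and the labels do not say how many mice were pooled.

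Activins are dimers of inhibin β subunits, and TGF-β is a related dimer that is secreted in a latent complex. Each ligand brings a type II receptor kinase together with a type I receptor kinase, and the type I kinase phosphorylates receptor-regulated SMAD proteins such as SMAD3, which enter the nucleus with SMAD4. Follistatin, the product of Fst, binds activin and keeps it from its receptors, while SMAD7 is an inhibitory SMAD that is itself induced by the pathway in many cells. In myeloid cells activin A, the dimer of the Inhba product, is known as a secreted product of stimulated cells, and TGF-β is known for restraining inflammation in the gut.

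The promoters of these genes differ in base composition, and the windows of 3 genes with unlike values, Inhba (higher in the ATPγS library), Tgfb1 (level) and Tgfbr2 (lower), are shown for that reason. Each is the 250 bases before the RefSeq start site (GRCm38.p6), 5′ to 3′ in the direction of the gene, at chr13:16011601-16011850 (plus strand), chr7:25686752-25687001 (plus strand) and chr9:116175364-116175613 (minus strand). Capitals mark matches, on either strand, to the GC box letters GGGCGG, the TATA box letters TATAAA, the AP-1 sequence TGAGTCA, the CRE core letters TGACG, the SMAD element CAGAC and the sequence CCAAT.
Inhba: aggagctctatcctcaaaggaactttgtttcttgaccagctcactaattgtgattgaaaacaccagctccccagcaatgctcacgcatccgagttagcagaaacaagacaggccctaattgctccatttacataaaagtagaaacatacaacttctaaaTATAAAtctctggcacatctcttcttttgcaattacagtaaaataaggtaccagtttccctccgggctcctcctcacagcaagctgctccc
Tgfb1: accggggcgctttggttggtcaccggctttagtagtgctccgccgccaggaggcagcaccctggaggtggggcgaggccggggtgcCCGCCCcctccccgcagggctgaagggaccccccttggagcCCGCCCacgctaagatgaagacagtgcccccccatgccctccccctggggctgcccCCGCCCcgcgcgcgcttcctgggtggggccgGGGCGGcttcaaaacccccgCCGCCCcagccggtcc
Tgfbr2: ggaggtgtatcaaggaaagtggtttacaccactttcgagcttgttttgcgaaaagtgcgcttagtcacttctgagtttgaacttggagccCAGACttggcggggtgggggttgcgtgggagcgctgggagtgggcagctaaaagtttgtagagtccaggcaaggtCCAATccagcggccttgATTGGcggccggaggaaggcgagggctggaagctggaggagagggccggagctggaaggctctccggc

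The Inhba window had a GC content of 43.2%, the lowest of the 8 members with a window in the RefSeq table. Tgfb1 had 75.2% and Tgfbr2 58.4%, while the other 5 ranged from 68.0% (Inhbb) to 82.0% (Acvr2a). The median over 13782 genes with a mean level of at least 1 FPKM was 56.4%. Inhba held 1 TATAAA match, which begins 91 bases before the start site, and no GC box. It was the 1 member window with TATAAA, a match found in 10.7% of all windows. The GC box was in 6 of the 8 member windows and in 46.5% of all windows, with 5 matches in Tgfb1. The SMAD element CAGAC was in 2 member windows, Tgfbr2 and Acvr2a, and in 40.4% of all windows. CCAAT was in 2, Tgfbr1 and Tgfbr2 (35.9% of all windows). Neither the AP-1 sequence (3.81% of all windows) nor the CRE core (22.4%) was in a member window. The motifs were chosen with the sequences in view, matches are descriptions of letters and not of binding, and none of the motifs searched overlaps another in the printed windows. Fst and Smad7 had no match in the promoter table.

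Among the ligands, the activin gene Inhba was the abundant one and the one that differed. Inhba (chromosome 13, 16011851 to 16031621, plus strand, GRCm38) stood at 55.0 FPKM in the control library and 149.5 FPKM in the ATPγS library, where FPKM is the number of fragments scaled to transcript length and to all mapped fragments. The ATPγS value was 2.72-fold higher, with a 95% counting interval of 2.31 to 3.23 from about 179 and 651 reads. That interval covers counting error only, since a single library per condition gives no replicate error. By level, Inhba stood at percentile 93.9 of all symbols in the control and 97.7 with ATPγS. Of the 3480 genes with a mean of at least 20 FPKM, 38 had a log2 ratio at or above that of Inhba, itself included. In such bulk RNA, more cells that carry a transcript and more RNA per cell cannot be told apart.

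The other ligand genes did not follow Inhba. Inhbb (chromosome 1, 119415465 to 119422248), which encodes the β subunit of activin B, stood at 1.25 FPKM in the control and 0.938 FPKM with ATPγS, about 11 reads in each library, with an interval of the ratio of 0.29 to 1.90. Tgfb1 (chromosome 7, 25687002 to 25705077), the gene of TGF-β1, was listed at 12.1 FPKM in both libraries, and the interval of its ratio (0.70 to 1.44) spans lower and higher values. Inhba thus made up 80.4% of the summed FPKM of the 3 ligand genes in the control and 92.0% with ATPγS. Per length of transcript, the Inhba level was 4.54 times that of Tgfb1 in the control and 12.4 times with ATPγS.

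Fst, the gene of follistatin (chromosome 13, 114452290 to 114458951, minus strand), was higher together with the ligand that its product binds. It stood at 3.69 FPKM in the control and 13.7 FPKM with ATPγS, 3.72-fold higher, with an interval of 2.38 to 6.27 from about 22 and 111 reads. With the shortest RefSeq-matched transcript in place of the longest, the interval was 1.76 to 8.53. Of 6412 genes with a mean of 5 to 20 FPKM, 233 had a log2 ratio at or above that of Fst, itself included. Inhba remained far more abundant per length, with a level 14.9 times that of Fst in the control and 10.9 times with ATPγS, and the counting intervals of their ratios overlapped.

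**Figure D1:**
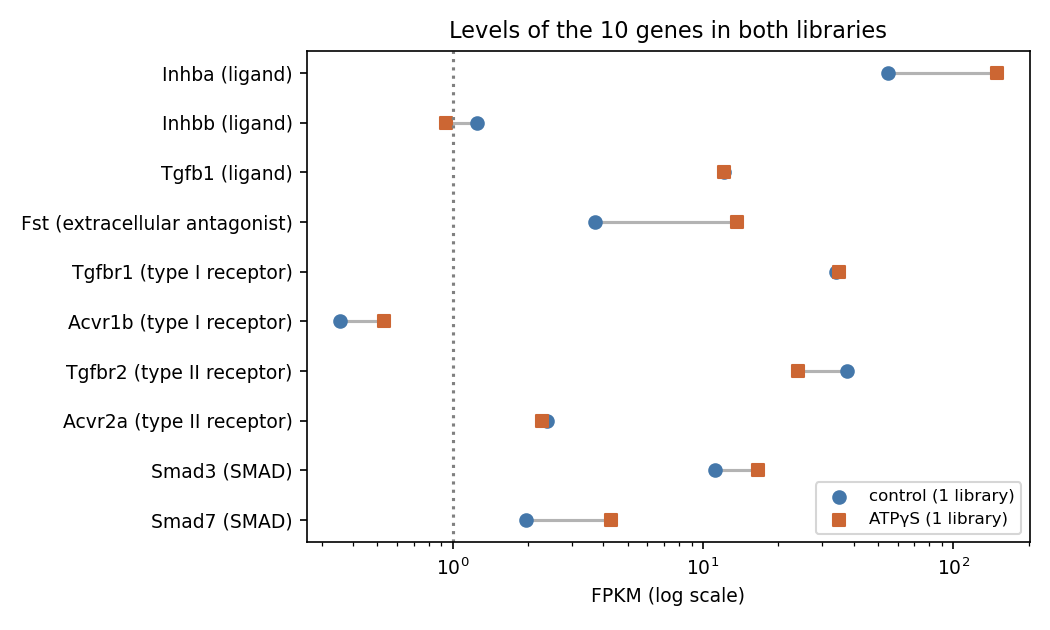
Level of each of the 10 genes in FPKM (log axis) in the control library (circles) and the ATPγS library (squares), 1 library each, with a grey line joining the pair and a dotted line at 1 FPKM. Inhba goes from 55.0 to 149.5 FPKM and Fst from 3.69 to 13.7 FPKM, while Tgfb1 and Tgfbr1 show nearly the same level in both libraries.

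Among the receptor genes of the set, those of TGF-β were abundant and those of activin were low. Tgfbr1 (chromosome 4, 47353222 to 47414931), the type I receptor of TGF-β, stood at 33.9 and 35.1 FPKM in control and ATPγS, a ratio of 1.04 with an interval of 0.91 to 1.18. Tgfbr2 (chromosome 9, 116084293 to 116175360), its type II partner, was the 1 receptor gene of the set whose counting interval did not include a ratio of 1. It stood at 37.5 FPKM in the control and 24.0 FPKM with ATPγS, 1.56-fold lower, and the interval of the ratio of ATPγS over control was 0.57 to 0.72 from about 647 and 552 reads. Of the 3480 genes with a mean of at least 20 FPKM, 509 had a log2 ratio at or below that of Tgfbr2. The level of Tgfbr1 per length was 0.90 times that of Tgfbr2 in the control and 1.46 times with ATPγS, so the order of the pair differed between the libraries.

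Acvr2a (chromosome 2, 48814109 to 48903269), a type II receptor of activins, stood at 2.38 and 2.28 FPKM in control and ATPγS, with an interval of its ratio of 0.57 to 1.61. It overlaps Orc4 on the opposite strand over 446 bases, and reads there cannot be assigned because the preparation does not mark strand. Acvr1b (chromosome 15, 101174067 to 101213684), the main type I receptor of activins, was listed at only 0.354 and 0.530 FPKM, about 3 and 7 reads, and lay under the minimum mean of 1 FPKM. At this depth its interval of 0.40 to 10.5 includes no difference. Genes on the opposite strand also overlap the span of Inhba, introns included (B230303A05Rik over 11573 bases and Gm48444 over 6240 bases), and that of Fst (Gm47040 over 289 bases). They were not analysed here, and reads they share with Inhba or Fst cannot be told apart.

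Both SMAD genes had higher values in the ATPγS library, short of 2-fold once 1 was added to each FPKM. Smad3 (chromosome 9, 63646767 to 63757994), the receptor-regulated SMAD of activin and TGF-β, stood at 11.1 FPKM in the control and 16.6 FPKM with ATPγS, 1.49-fold higher (interval 1.19 to 1.87, about 121 and 241 reads). Smad7 (chromosome 18, 75367529 to 75395935), the inhibitory SMAD, stood at 1.97 and 4.29 FPKM in control and ATPγS, 2.18-fold higher (interval 1.24 to 3.93, about 18 and 52 reads). Its log2 ratio with 1 added to each FPKM was 0.83, and 2170 of 8419 genes with a mean of 1 to 5 FPKM had a log2 ratio at or above it. In that low range, of 626 olfactory and vomeronasal receptor genes, which myeloid cells are not known for, 28.8% had a ratio of 2-fold or more upward and 21.1% of 2-fold or more downward. The level of Smad7 per length was 0.18 times that of Smad3 in the control and 0.26 times with ATPγS.

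**Figure D2:**
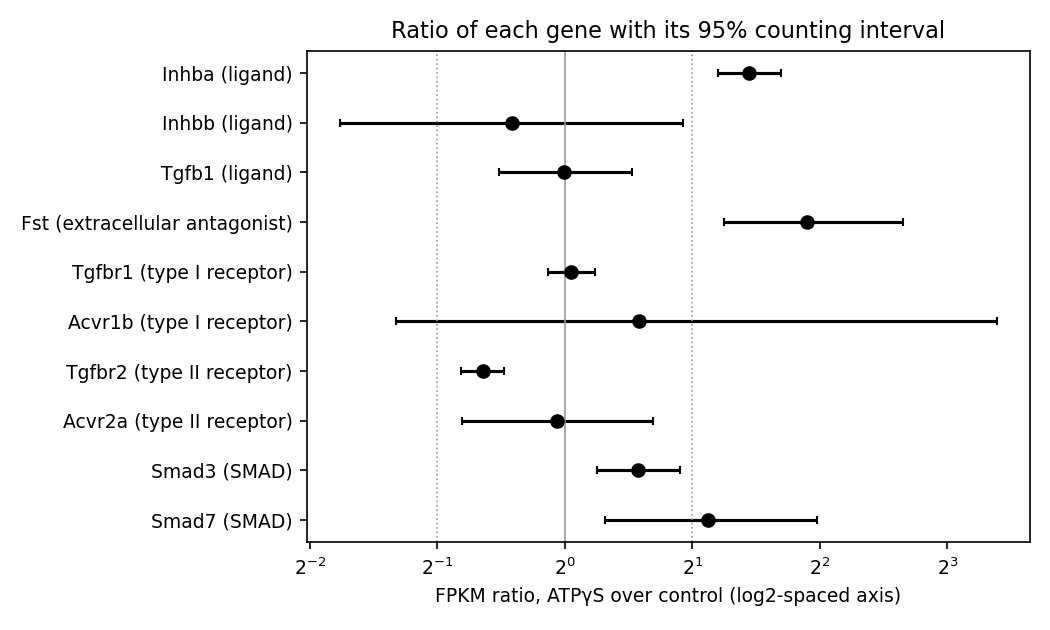
Ratio of FPKM, ATPγS over control, for each of the 10 genes (points, log2-spaced axis) with its 95% exact binomial counting interval (bars), a solid line at 1 and dotted lines at 2-fold in either direction. The bars of Inhba (2.31 to 3.23) and Fst (2.38 to 6.27) lie above 2-fold, that of Tgfbr2 (0.57 to 0.72) lies below 1, and that of Acvr1b (0.40 to 10.5) is the widest.

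Counted over the set, 9 of the 10 genes had a mean of at least 1 FPKM, and 2 of the 9 (Inhba and Fst) had a 2-fold or greater excess with ATPγS on the scale log2((ATPγS FPKM + 1) / (control FPKM + 1)), against 13.8% of all 18311 such genes. None was at least 2-fold lower, against 9.91% of all genes. The set was chosen with these values known, so nothing is read from the comparison with those shares. The share of all genes differed with level. At least 2-fold higher were 21.2% of genes with a mean of 1 to 5 FPKM, 10.3% at 5 to 20 FPKM and 2.30% at 20 FPKM or more. Each class held 3 members, with Fst in the middle one and Inhba in the highest. The median log2 ratio of the 9 genes was 0.05, beside 0.01 over all genes.

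**Figure D3:**
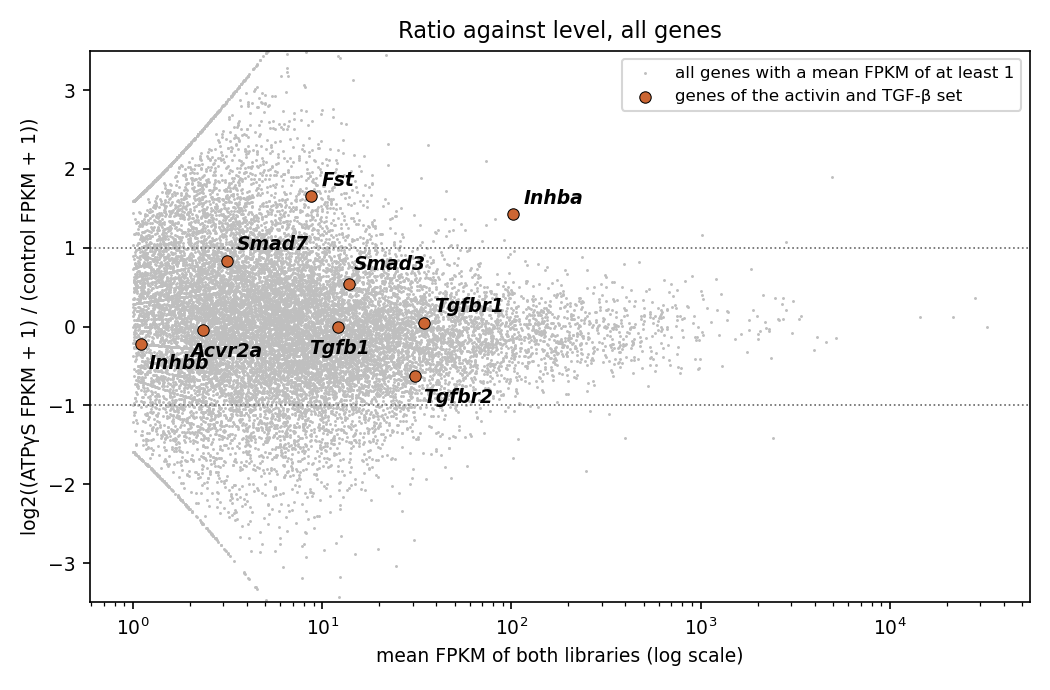
Log2 ratio, with 1 added to each FPKM, against the mean FPKM of both libraries (log axis) for all 18311 genes with a mean of at least 1 FPKM (grey) and the 9 members among them (orange), with dotted lines at 2-fold and 78 genes beyond the axis limits of 3.5. Inhba lies above nearly all genes of its level, Fst lies within the upper edge of a wide spread, and the other 7 lie between the lines.

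In order of level, Inhba, Tgfbr2, Tgfbr1, Tgfb1, Smad3, Fst, Acvr2a, Smad7, Inhbb and Acvr1b followed each other in the control library. With ATPγS, Inhba still came before Tgfbr1 and Tgfbr2, which had changed places, and Smad3 and Fst stood above Tgfb1, with Smad7 above Acvr2a. With a single library per condition, which neighbours in these orders differ beyond a replicate spread cannot be said. A pattern over 2 libraries is a single ratio, so no gene was named for likeness to a member.

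The rest of the pathway was described with 7 lists of 90 genes, of which 75 had a mean of at least 1 FPKM. Upward by 2-fold or more were 5 of the 75 and downward by as much was 1, with 69 between, beside 13.8% upward and 9.91% downward of all 18311 genes. The median log2 ratio of the 75 was -0.01. All 6 had a mean under 5 FPKM. They were Gdf3 (0.764 and 3.14 FPKM in control and ATPγS), Chrd (listed at 0 and at 2.12 FPKM), Grem1 (0.254 and 2.09 FPKM), Acvr2b (0.243 and 1.82 FPKM) and Cdkn2b (0.614 and 3.90 FPKM) on the higher side and Mstn (2.64 and 0.768 FPKM) on the lower. These 6 genes were chosen after their values were seen. Among the genes named below from each list are the 2 with the largest log2 ratio in either direction at a mean of at least 5 FPKM. Because those were picked by that ratio, their intervals are no independent support for a difference. With 1 added to each FPKM, Inhba and Fst were the genes of the 10 and the 90 past 2-fold at a mean of 5 FPKM or more. Of all genes at that cut, 7.48% passed 2-fold upward and 9.04% downward. By the FPKM ratio alone, Smad1 (11.4 and 5.35 FPKM in control and ATPγS) and Smurf1 (9.04 and 4.24 FPKM) also passed it, both downward.

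Among 9 counted genes of other ligands, Bmp4, a bone morphogenetic protein, stood at 11.2 and 13.4 FPKM in control and ATPγS, Tgfb3, another TGF-β, at 4.45 and 5.81 FPKM, and the stress-induced ligand gene Gdf15 at 14.1 and 9.34 FPKM. The interval of the ratio of each of the 3 includes no difference. Of the 11 counted genes that hold TGF-β latent or release it, none reached 2-fold, beside 13.8% upward and 9.91% downward of all genes. Thbs1, of thrombospondin, which can activate latent TGF-β, stood at 118.5 and 131.7 FPKM, and Furin, of the protease that cleaves the ligand precursors, at 51.9 and 57.6 FPKM. Ltbp4, of a latent TGF-β binding protein, was 1.62-fold higher (19.9 and 32.3 FPKM, interval 1.38 to 1.91), and Emilin1, of a matrix protein that limits processing of the precursor, was 1.40-fold higher (10.8 and 15.1 FPKM, interval 1.07 to 1.82).

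Of 8 other counted antagonist genes, the abundant ones had nearly the same values in both libraries. Fstl1, of a follistatin-like protein, stood at 49.9 and 48.9 FPKM, and Dcn, of decorin, a matrix proteoglycan that binds TGF-β, at 605 and 587 FPKM. Dcn is also among the fibroblast and endothelial markers below, and which cells its reads came from was not tested. Bambi, of a pseudoreceptor, stood at 9.97 and 9.09 FPKM, and Tgfbr3, of the co-receptor betaglycan, was 1.39-fold lower (6.26 and 4.50 FPKM). Fstl3, of the closest relative of follistatin and named after its values were seen, was low at 1.66 and 2.80 FPKM, with an interval of its ratio of 0.67 to 4.92.

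Of 8 other counted receptor genes of the family, 4 had a log2 ratio above 0 and 4 below. Acvr1, a type I receptor mainly of bone morphogenetic proteins, was 1.96-fold lower (7.06 and 3.59 FPKM, interval of ATPγS over control 0.32 to 0.80). Acvr1c, a type I receptor that can serve activin B, was 1.40-fold lower (8.74 and 6.22 FPKM, interval 0.57 to 0.88). Its level per length exceeded that of Acvr1b in both libraries. Eng, of the co-receptor endoglin, stood at 9.56 and 8.99 FPKM.

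Smad1, which serves bone morphogenetic proteins, stood at 11.4 FPKM in the control and 5.35 FPKM with ATPγS, 2.12-fold lower by FPKM (interval 0.32 to 0.68) and at a log2 ratio of -0.96 with 1 added. Smad2, the partner of Smad3 in activin and TGF-β signalling and named after its values were seen, was 1.43-fold lower (9.06 and 6.34 FPKM, interval 0.56 to 0.88). With its shortest RefSeq-matched transcript the interval was 0.41 to 1.19, which includes no difference. The level of Smad3 per length was 1.23 times that of Smad2 in the control and 2.62 times with ATPγS. Smad5 was 1.43-fold higher (6.25 and 8.92 FPKM, interval 1.09 to 1.86), and the common partner Smad4 was 1.22-fold lower (35.1 and 28.7 FPKM, interval 0.69 to 0.98). The median log2 ratio of the 4 counted genes of this list was -0.37. All genes with a mean of 5 to 20 FPKM, the class of Smad1, Smad2 and Smad5, had a median of -0.06. Those of at least 20 FPKM, the class of Smad4, had a median of -0.12.

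With 1 added to each FPKM, none of 19 counted genes of SMAD cofactors, corepressors and turnover reached 2-fold, beside 13.8% upward and 9.91% downward of all genes. The corepressor gene Tgif1 stood at 308 and 268 FPKM, and Fkbp1a, whose product binds the type I receptor and holds it inactive, at 68.9 and 53.0 FPKM. Smurf1, of a ubiquitin ligase that degrades SMADs and receptors, was 2.13-fold lower by FPKM (9.04 and 4.24 FPKM, log2 ratio -0.94 with 1 added). The interval of its ratio of ATPγS over control was 0.34 to 0.64. Also past 2-fold by FPKM, and named after their values were seen, were Wwp1 (4.29 and 1.87 FPKM) on the lower side and Usp11 (1.56 and 3.58 FPKM) on the higher. Pmepa1, a feedback inhibitor gene induced by TGF-β, was 1.58-fold lower (13.5 and 8.53 FPKM, interval of ATPγS over control 0.48 to 0.82).

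Of 16 textbook SMAD target genes, 15 lay between the 2-fold lines and the median log2 ratio was -0.05, with 7 above 0 and 9 below. The remaining gene, Cdkn2b, was higher, beside 13.8% upward and 9.91% downward of all genes. Junb, of an AP-1 subunit that many other signals also induce, was 1.39-fold higher (446 and 620 FPKM, interval 1.31 to 1.47), and Zeb2, of a transcriptional repressor, 1.63-fold higher (13.5 and 22.0 FPKM, interval 1.35 to 1.98). Id1, of an inhibitor of helix-loop-helix factors, was 1.65-fold lower (49.8 and 30.1 FPKM, interval 0.45 to 0.82), and Id3 of the same family stood at 416 and 397 FPKM. Many of these genes answer to other signals as well.

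**Figure D4:**
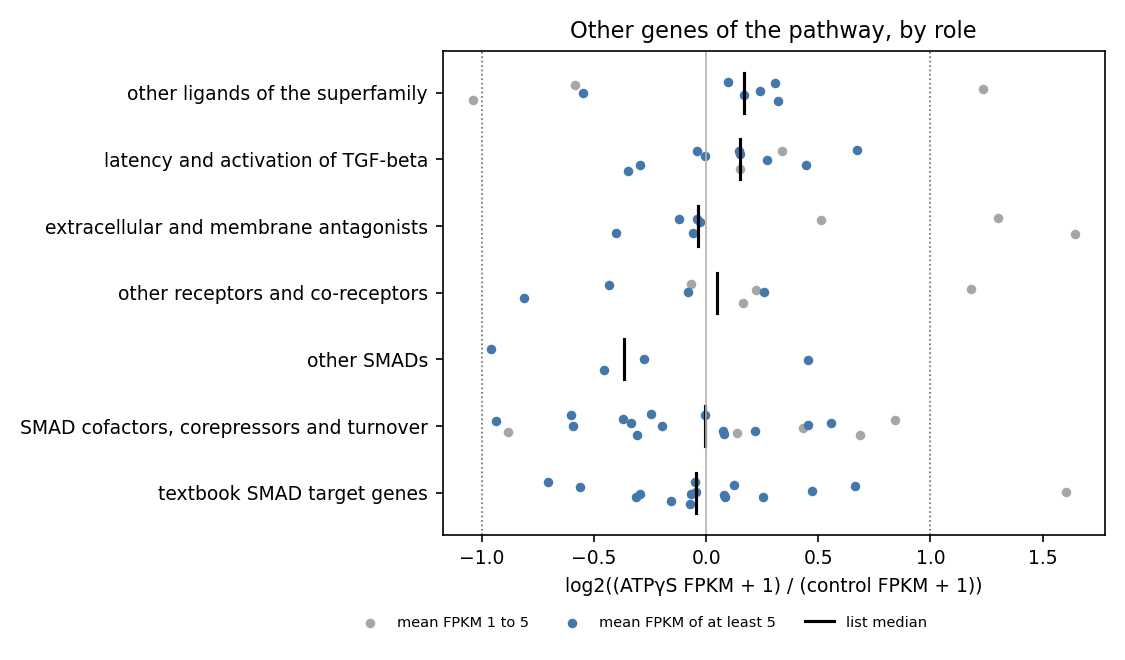
Log2 ratio, with 1 added to each FPKM, of the 75 counted genes in 7 lists of the wider pathway, with grey points for a mean of 1 to 5 FPKM, blue points for 5 FPKM or more, a black bar at each list's median and dotted lines at 2-fold. The 6 points beyond the lines are all grey, and the medians run from -0.37 (other SMADs) to 0.17 (other ligands).

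The sort was checked against 8 lists of cell type markers, and 3 genes stand in both a pathway and a marker list. Neutrophil markers summed to 37389 and 40311 FPKM in control and ATPγS (9 of 10 listed genes in the tables, all above 0), with S100a8 at 20604 and 22410 FPKM. Monocyte markers summed to 328 and 304 FPKM over 7 of 7 genes, of which 6 had a log2 ratio below 0 and 1 above, with a list median of -0.18. Markers of other cell types were present in both libraries. Macrophage and dendritic cell markers summed to 3270 and 3620 FPKM (10 of 10 genes), most of it Cd74 at 2647 and 2825 FPKM. Of these 10 genes 9 had a log2 ratio above 0, with a list median of 0.36. Named after their values were seen, the complement genes C1qc (12.5 and 34.2 FPKM, interval of its ratio 1.84 to 4.19) and C1qb (39.7 and 78.9 FPKM, interval 1.56 to 2.55), the macrophage surface gene Adgre1 (149.3 and 215 FPKM, interval 1.34 to 1.56) and the low Flt3 (0.946 and 3.78 FPKM) were higher with ATPγS. Clec9a, a dendritic cell gene, was lower (4.82 and 0.198 FPKM). Fibroblast and endothelial markers, whose cells can make follistatin and activin, summed to 967.5 and 981.6 FPKM (8 of 8 genes), most of it Dcn at 605 and 587 FPKM. Of these 8 genes 6 had a log2 ratio above 0 and 2 below, with a list median of 0.13. Platelet markers summed to 44.7 and 87.3 FPKM, with Pf4 at 13.6 and 52.9 FPKM and Gp9 listed at 0 in both libraries. Ppbp, the other abundant gene of that list, stood at 28.8 and 27.5 FPKM (interval of its ratio 0.68 to 1.33). Of the 3 counted platelet genes 2 had a log2 ratio above 0 and 1 below. Epithelial markers summed to 165 and 116 FPKM (6 of 6 genes), B cell markers to 1261 and 895 FPKM (6 of 6) and T and NK cell markers to 258 and 89.3 FPKM (8 of 9). Of the 8 T and NK cell genes 7 had a log2 ratio below 0 and 1 above, with a list median of -1.35. At least 2-fold lower were 5 of the 8, beside 9.91% of all genes. The epithelial and the B cell list each had 5 genes below 0 and 1 above, with medians of -0.66 and -0.58. The part of these cells in the values of Inhba, Fst and Tgfbr2 was not tested.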

How the data were processed

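Each library's table gives 1 FPKM value per gene symbol. Per the submitters' processing notes, the authors aligned and quantified reads on mm10 with tools that include Cufflinks 2.2.1, TopHat2 2.0.13 and Bowtie2 2.2.3, and the unit of the deposited values, FPKM, is inferred from Cufflinks and the values. Their gene annotation and tool options: not given in the sources used here. Per the labels' protocols, SMART-Seq HT cDNA and Nextera libraries were made, a preparation that does not mark strand.

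The members, gene lists and thresholds were chosen with earlier results of these data known. Depth was read from the steps of FPKM times coding length in 1304 receptor genes with 1 coding exon, giving 2133000 (control) and 2848000 (ATPγS) fragments. The depth taken was that with the largest share of steps below 10 reads within 0.05 of a whole number. That share was 71.0% (control) and 70.9% (ATPγS). A depth fixed in advance would give 10% by chance, so the share is no separate check of the depth. Reads per gene used the longest RefSeq-matched GENCODE M21 transcript (GRCm38, which is mm10) and are estimates. Intervals are 95% exact binomial (Clopper-Pearson, SciPy 1.17.1) on these reads and cover counting error only. Folds printed are FPKM ratios, and counts use log2 ratios with 1 added, a mean of at least 1 FPKM and 2-fold. Named pathway genes were the 2 most abundant and, at a mean of at least 5 FPKM, the 2 with the largest log2 ratio of each list in either direction. The others are those the text says were chosen or named after their values were seen. Named markers were among the 2 most abundant of each list, apart from Gp9 and those the text says were named after their values were seen. With 1 library per group no p-value was computed. On simulated data with counting error only, the depth estimate, the recovery of 3-fold changes in genes of at least 20 FPKM and the interval were tried. The interval was not tried at read numbers as low as those of Fst, Smad7 or Inhbb, and the other steps were not simulated.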

Additional observations from a re-analysis of the deposited data

How the results depend on the processing

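Other settings tried were a pseudocount of 0.1 or 5, equal FPKM sums, a median log2 ratio of 0, no filter or a mean of at least 5 FPKM, and thresholds of 1.5-fold and 3-fold. Inhba and Fst stayed the members at least 2-fold higher under each except 3-fold, which left 1 (Fst), and Smad7 joined them with a pseudocount of 0.1 (18.6% of all genes higher) or at 1.5-fold (24.1%), where Tgfbr2 was the 1 member lower (20.7% of all genes). The members' median was 0.18 (0.12 over all genes) after rescaling to a median of 0, which moved genes of at least 10 FPKM by 0.13. At a mean of at least 5 FPKM the members' median was 0.29 (-0.09 over all genes). Of the wider pathway genes, 4 were lower with a pseudocount of 0.1 (13.4% of all genes). With a pseudocount of 5, 0 were higher and 0 lower (3.06% and 2.52% of all genes), as at a mean of at least 5 FPKM (7.48% and 9.04%). Without a filter 2 were lower (8.27%), and 0 were lower after rescaling to a median of 0 (8.19%). At 1.5-fold 9 were higher and 8 lower (24.1% and 20.7% of all genes), and at 3-fold 2 were higher and 0 lower (6.30% and 3.34%). The log2 ratio of Fst was 1.11 with a pseudocount of 5. Shorter transcripts widened intervals, and that of Smad2 then included no difference; this alternative was chosen after seeing the data. No paired analysis was possible because each condition has 1 library. Inhbb, Acvr1b, Acvr2a, Smad7 and, in the control library, Fst (about 22 reads) rest on few reads, so their ratios are loose. No value here has a replicate check.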
